A study of Mus musculus with 15 samples.

Results

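Glycolysis and the pentose phosphate pathway were followed through 38 genes of the 21669 with a symbol in the deposited expression table. They were chosen by symbol, not by their values: glucose transporters, the enzymes of glycolysis, lactate dehydrogenases and lactate transporters, pyruvate dehydrogenase and its kinases, the main pentose phosphate enzymes, and the regulator *Hif1a*. All 38 were in the table, and 36 of them passed the filter on low values used for testing. *Ldhb* and *Pdk4* did not pass it.

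The study asked how B cells of C57BL/6J female mice change as they are activated and become plasmablasts, and what inhibition of EZH2, the enzyme that trimethylates lysine 27 of histone H3, does to that process. RNA-seq was performed on CD43- splenic B cells that had received no stimulus or drug (nB), and on activated B cells (actB, sorted as B220+GL7+CD138-) and plasmablasts (Pb, sorted as CD138+) after 3 days in culture. The cultures received LPS, IL2 and IL5, according to the methods, with either 2 μM of the EZH2 inhibitor GSK343 or its vehicle DMSO, which gave 5 groups: nB, actB with DMSO, actB with GSK343, Pb with DMSO and Pb with GSK343. For Pb treated with GSK343 the labels name Il6 where those of every other cultured group name Il5, so a GSK343 effect in Pb and an effect of that cytokine cannot be told apart if the labels hold. All cells were primary B cells, and the mice were 6 to 9 weeks old according to the methods. Pooling of mice is not stated in the labels, so p-values measure the spread between these samples.

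Glycolysis splits glucose into pyruvate and yields ATP quickly, and in lymphocytes that have been activated much of the pyruvate is turned into lactate and exported. Several steps can be carried by alternative enzymes of different genes, such as the hexokinases that trap glucose in the cell or the kinases that switch pyruvate dehydrogenase off and so keep pyruvate out of mitochondria. The pentose phosphate pathway branches off after hexokinase and supplies NADPH and ribose for nucleotides, and HIF1A is a transcription factor known for inducing many glycolytic genes.

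Between 19421830 and 26307413 reads were counted per library, so the limit of 3 reads that a count of 0 allows lay between 0.114 and 0.154 RPM (the reads of a gene scaled to the total of its library). Replicates 1 and 2 of nB differed by less than the sampling noise (chi-square per degree of freedom 0.00958 over 14442 genes, against at least 3.58 between any other replicates) and were counted as 1 sample, which left 2 nB samples and 3 in every other group. The replicate 2 libraries stood apart from the others of their group, most of all in actB, where chi-square per degree of freedom was 16.7 to 29.7 against replicates 1 and 3 and 3.80 to 6.07 between those. Markers followed the labels. The 6 B cell markers summed to 3374 to 3499 RPKM (RPM per kilobase of gene) in nB, 1850 to 2138 in actB with DMSO and 922.3 to 942.1 in Pb with DMSO. The plasmablast markers *Sdc1*, *Prdm1*, *Xbp1*, *Irf4* and *Jchain* summed to 3065 to 3396 RPKM in Pb, 485 to 669 in actB and 214 to 231 in nB. The nB libraries also held transcripts of other cell types. The 9 myeloid markers measured summed to 194.8 to 239.4 RPKM in nB and 4.14 to 5.44 in actB with DMSO, the 7 T and NK cell markers to 27.5 to 30.7 and 0.474 to 0.851, the 4 erythroid markers to 82.4 to 303.4 and 9.18 to 12.9, and the 3 platelet markers to 3.43 to 3.77 and 0.215 to 0.269. *S100a8*, *S100a9* and *Elane* were at 0 in every cultured library. The part of these cells in the nB comparisons was not tested.

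Promoter sequence was read from the RefSeq windows of the mouse genome (build GRCm38.p6) for 37 of the 38 genes, as the 250 bases before each of 57 annotated starts. ACGTG, the core of the sequence that HIF1A and its partner bind, was found on either strand in 36.8% of these windows and in 16.6% of all 32851 windows of the same length. CACGTG, the E-box bound by MYC and related factors, was found in 12.3% and 6.02%, and each CACGTG also counts as ACGTG on both strands. Counted by gene, 17 of 37 genes held ACGTG in any window (45.9%, against 18.5% of all genes). The 37 genes had more windows per gene than all genes (57 windows, against 32851 for 27025 genes), which favours a match. Windows of 1 gene can also overlap, as those of *Aldoa* that share a match. A match is a run of letters and not a measured binding site. For *Ldha*, *Slc16a3*, *Hk2* and *Pgk1*, of the 6 genes that rose most on activation, 1 window that holds the motif is shown. These are written 5′ to 3′ with ACGTG or its reverse complement in capitals.
*Ldha*, chr7:46845554-46845803, plus strand: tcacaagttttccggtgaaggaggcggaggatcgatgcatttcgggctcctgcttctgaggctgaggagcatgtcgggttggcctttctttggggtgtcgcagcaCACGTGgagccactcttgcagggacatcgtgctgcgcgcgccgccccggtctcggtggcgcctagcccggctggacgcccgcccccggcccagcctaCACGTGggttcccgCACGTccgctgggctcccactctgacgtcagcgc
*Slc16a3*, chr11:120948817-120949066, plus strand: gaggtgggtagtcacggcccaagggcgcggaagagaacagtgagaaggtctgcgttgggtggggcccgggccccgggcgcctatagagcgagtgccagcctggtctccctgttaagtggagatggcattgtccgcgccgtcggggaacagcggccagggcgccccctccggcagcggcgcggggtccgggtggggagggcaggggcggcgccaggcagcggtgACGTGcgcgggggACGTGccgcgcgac
*Hk2*, chr6:82774455-82774704, minus strand: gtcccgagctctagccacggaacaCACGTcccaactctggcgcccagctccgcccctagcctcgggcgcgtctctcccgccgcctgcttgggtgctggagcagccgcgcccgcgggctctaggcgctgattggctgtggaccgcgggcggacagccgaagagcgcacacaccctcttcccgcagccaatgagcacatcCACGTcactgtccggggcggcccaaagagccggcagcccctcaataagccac
*Pgk1*, chrX:106186850-106187099, plus strand: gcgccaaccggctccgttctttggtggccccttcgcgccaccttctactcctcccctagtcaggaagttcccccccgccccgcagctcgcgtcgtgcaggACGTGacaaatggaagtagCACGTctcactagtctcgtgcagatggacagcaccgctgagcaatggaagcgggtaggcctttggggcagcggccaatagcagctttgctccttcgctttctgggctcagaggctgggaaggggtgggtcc
The *Ldha* window shown held 2 copies of CACGTG and 1 further match, and each of the other windows shown held 2 matches of ACGTG with no CACGTG. The second window of *Ldha* held neither motif. *Tpi1* and *Aldoc*, the other genes among the 6, held neither motif in their windows. Nor did *Gpi1*, *Gapdh*, *Eno1* and *G6pdx*, which also rose. Of genes that were lower in actB than in nB, *Hk3* held 1 match of ACGTG and *Eno3* held neither motif. Whether the motif goes with a change in level was not tested.

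As a whole, the 38 genes took up a small share of the reads in nB and a several times larger share in actB. The share was 0.346% and 0.328% in nB, and 1.158%, 1.230% and 1.140% in actB with DMSO. In Pb with DMSO it was 0.951%, 0.904% and 0.902%, below every actB library with DMSO and above both nB libraries. *Pkm*, which encodes pyruvate kinase, took the largest part of these reads in the cultured groups, followed in actB by *Ldha*, *Aldoa* and *Pgk1*. With GSK343 the share was 0.911%, 1.133% and 0.979% in actB and 0.664%, 0.876% and 0.756% in Pb, so all GSK343 libraries lay below all DMSO libraries of the same cell type. These shares are descriptions and were not tested.

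**Figure D1:**
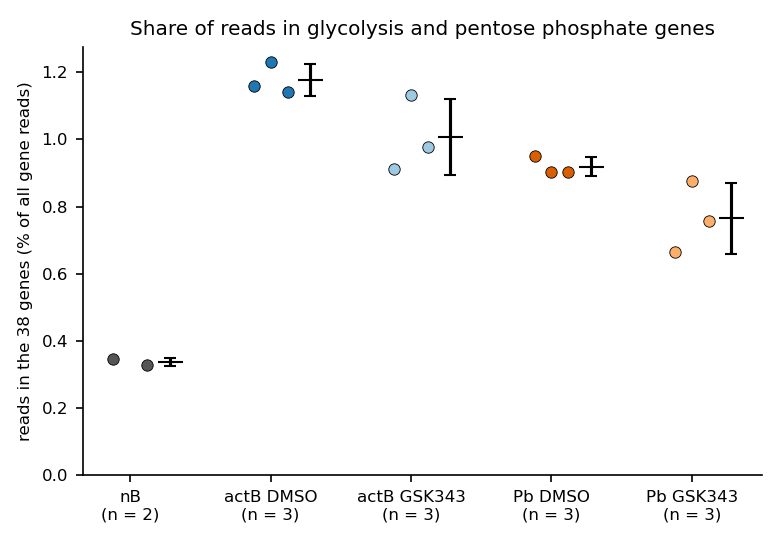
Reads in the 38 genes as a percentage of all gene reads, on an axis from 0, with 1 point for each library and the mean with its SD beside each group. The share lies between 0.328% and 0.346% in nB and between 0.664% and 1.230% in the cultured groups, and within each cell type the GSK343 points lie below the DMSO points.

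**Figure D2:**
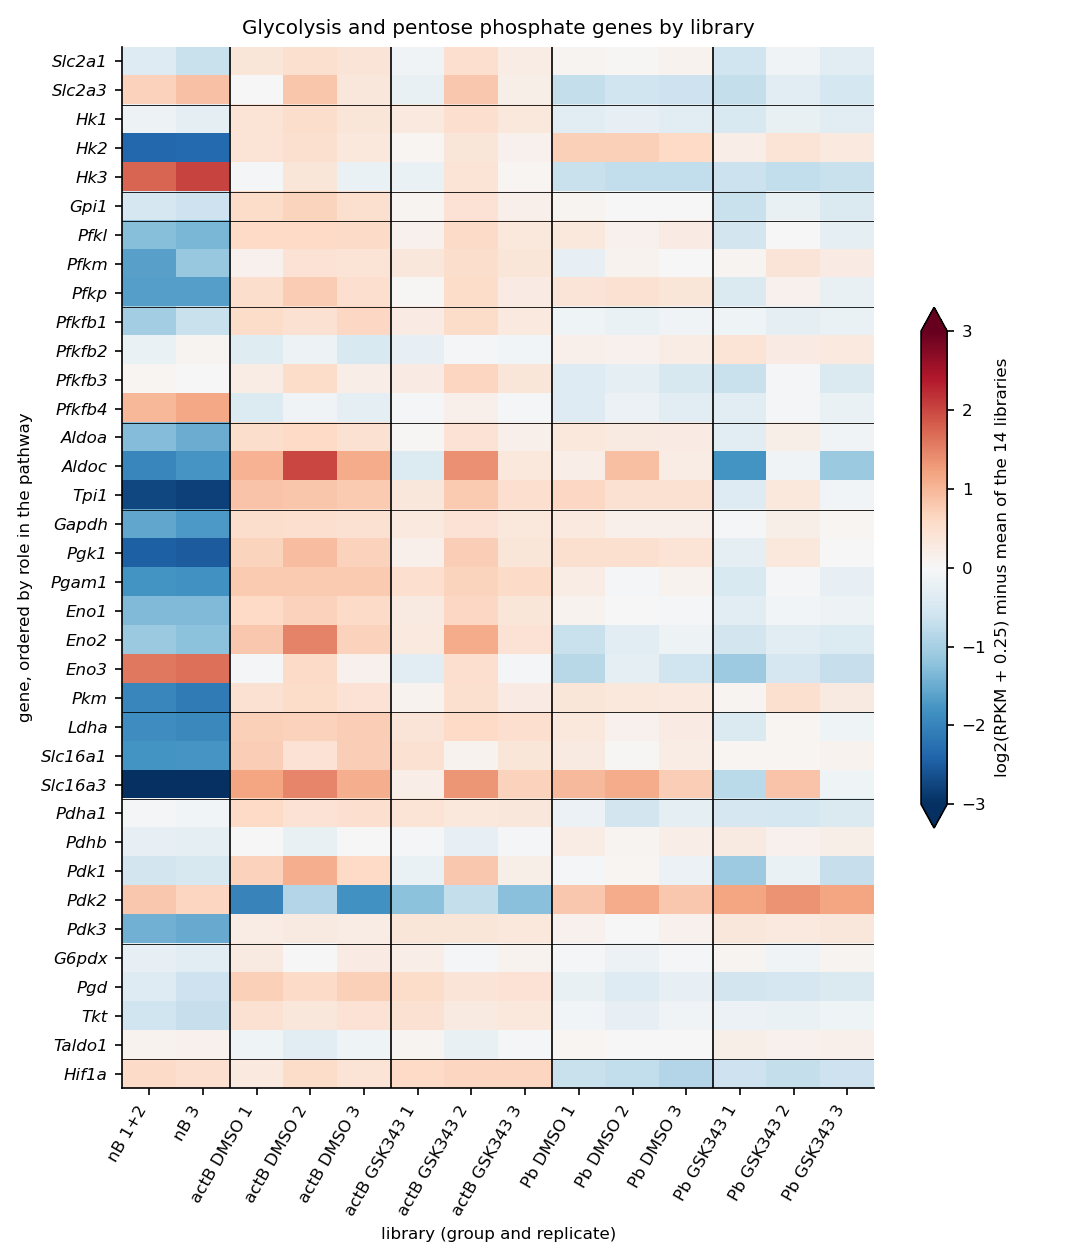
Each row is 1 of the 36 genes tested, ordered by its role from glucose uptake to *Hif1a*, and each column is 1 library, with log2(RPKM + 0.25) minus the mean over the 14 libraries in colour (red higher, blue lower, colours end at 3). Most genes are blue in nB, while *Hk3*, *Eno3* and *Pfkfb4* are red there, and *Pdk2* is blue in actB alone.

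Most of the pathway was higher in actB than in nB. The nB cells were not cultured, given DMSO or sorted as actB were, so activation cannot be told apart from these differences. Changes "on activation" are those between nB and actB with DMSO. Between nB and actB with DMSO, 27 of the 36 genes tested rose and 6 fell (limma, adjusted p under 0.05), where 40.9% of all 11299 genes tested rose and 36.3% fell. The median log2 fold change of the 36 was 1.35, and that of all genes 0.053. *Slc16a3*, *Tpi1*, *Aldoc*, *Pgk1*, *Hk2* and *Ldha* rose most, and *Pdk2*, *Hk3*, *Eno3* and *Pfkfb4* had the most negative log2 fold changes. Of these, *Hk3* passed the filter on low values through the nB columns alone, and *Slc16a3* and *Eno2*, below 1 RPKM in nB, through the cultured libraries alone, so for these 3 the filter itself favours a difference. With any 1 nB or actB library left out, 26 or 27 rose and 5 to 8 fell, where 37.1% to 40.9% of all genes tested rose and 33.2% to 36.5% fell.

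The step from actB to Pb went mostly the other way. In Pb with DMSO, 22 genes were lower and 5 higher than in actB with DMSO, where 42.4% of all genes tested were lower and 27.3% higher. The median log2 fold change of the 36 was -0.41, and that of all genes was -0.12. With libraries scaled to their median gene, 18 were lower and 5 higher, where 34.5% and 33.7% of all genes tested were. The median of the 36 was then -0.30, and 49.4% rather than 39.2% of all genes called were higher. Since RNA was taken from sorted cells in bulk, fewer cells of a type and less RNA per cell cannot be told apart. Against nB, 23 genes were still higher in Pb with DMSO and 7 were lower, with a median log2 fold change of 0.65, where 39.5% of all genes tested were higher and 41.1% lower. Those higher by most were *Slc16a3*, *Tpi1*, *Hk2*, *Pgk1*, *Pkm* and *Aldoc*, and those lower by most *Hk3*, *Eno3*, *Slc2a3*, *Pfkfb4*, *Hif1a* and *Pfkfb3*. Here too the filter itself favours a difference from nB for *Slc16a3*, *Eno2* and *Hk3*. With median scaling, *Pfkfb3* was no longer called against nB (adjusted p = 0.0617) and *G6pdx* and *Pfkfb2* were called higher (adjusted p = 0.0355 and 0.0392). The 3 stage comparisons share libraries with each other and with those of GSK343.

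Read along the sequence nB, actB and Pb, 13 genes rose, fell in part and remained above nB in Pb: *Eno1*, *Eno2*, *Gapdh*, *Gpi1*, *Ldha*, *Pdk3*, *Pfkfb1*, *Pfkl*, *Pfkm*, *Pgam1*, *Pgd*, *Slc16a1* and *Tkt*. Another 8 rose and were not called between actB and Pb: *Aldoa*, *Aldoc*, *Pfkp*, *Pgk1*, *Pkm*, *Slc16a3*, *Slc2a1* and *Tpi1*. *Hk2* and *Pdhb* rose at both steps. *Pdk2*, *Pfkfb2* and *Taldo1* fell on activation and rose again in Pb, and *Eno3* fell at both steps. *Hk3* was called lower at both steps too, but was above 1 RPKM in nB alone. *Hif1a*, *Pfkfb3* and *Slc2a3* were called lower in Pb only, *Pfkfb4* fell on activation and was not called between actB and Pb, and *G6pdx*, *Hk1* and *Pdk1* rose and came back to a level not called different from nB. *Pdha1* rose and then fell below nB.

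Of the glucose transporter genes, *Slc2a1* rose on activation and *Slc2a3* fell in Pb. *Slc2a1* (GLUT1), the transporter of proliferating cells, was at 22.2 and 18.2 RPKM in nB, 37.4, 40.5 and 37.8 in actB with DMSO and 30.8, 29.7 and 30.9 in Pb with DMSO. It rose 1.91-fold on activation (log2 fold change 0.93 ± 0.16 (SE), adjusted p = 0.000171). Its lower level in Pb was called when replicate numbers were blocked and not otherwise (log2 fold change -0.34, adjusted p = 0.0527 without and 0.0171 with the block). *Slc2a3* (GLUT3), a transporter of high affinity, was at 10.3 and 11.8 RPKM in nB and 6.25, 11.4 and 8.09 in actB with DMSO, where the groups overlapped. In Pb with DMSO it stood at 3.75, 4.11 and 4.02 RPKM, below all actB libraries (log2 fold change -1.03 ± 0.24 (SE), adjusted p = 0.00195). Of the RPKM summed over both transporters, *Slc2a1* made up 64.4% ± 5.32 (SD) in nB, 82.0% ± 3.86 in actB with DMSO and 88.5% ± 0.650 in Pb with DMSO.

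The hexokinases changed places. *Hk2*, the inducible form, was at 3.50 and 3.51 RPKM in nB, 25.0, 26.2 and 23.5 in actB with DMSO and 30.9, 30.9 and 28.6 in Pb with DMSO, with no overlap between the 3 groups. It rose 7.11-fold on activation (log2 fold change 2.74 ± 0.090 (SE), adjusted p = 4.04e-11) and again in Pb (0.27 ± 0.081 (SE), adjusted p = 0.00894). *Hk1*, the form present in most tissues, went from 11.7 and 10.5 RPKM to 17.3, 18.8 and 16.7 and back to 10.3, 10.9 and 10.2. *Hk2* thus made up 21.7% ± 0.903 (SD) of the hexokinase RPKM in nB, 58.2% ± 0.458 in actB with DMSO and 74.2% ± 0.676 in Pb with DMSO. *Hk3*, known from myeloid cells, had 113 and 139 reads in nB, 19, 32 and 15 in actB with DMSO and 4, 3 and 3 in Pb with DMSO. The last lie at or just above the limit of 3 reads per library, so no fold against Pb is given. It was at 1.39 and 1.72 RPKM in nB and at most 0.391 in any cultured library. Since it passed the filter through nB alone, its values are given without a p-value, though it is counted among the genes called lower. The sum of the myeloid markers was also higher in nB, and its part in this was not tested.

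**Figure D3:**
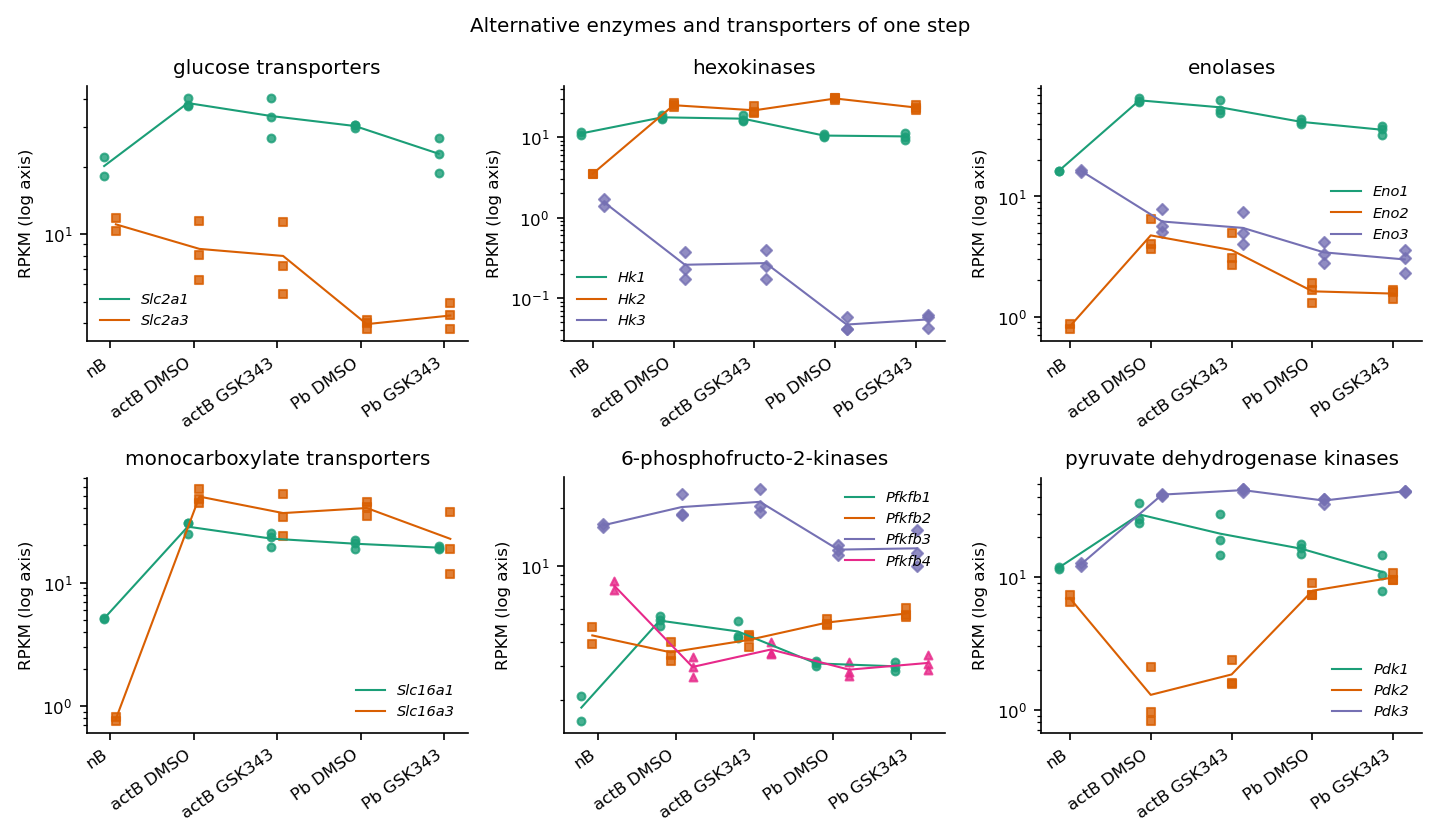
RPKM on a log axis for 6 sets of genes whose products serve the same step, with 1 point for each library and a line through the group means, in the order nB, actB with DMSO, actB with GSK343, Pb with DMSO and Pb with GSK343. *Hk2* crosses above *Hk1* and *Slc16a3* above *Slc16a1* on activation, *Eno1* and *Eno3* part from a common measured level in nB, and *Pdk2* dips in actB. The measured level of *Eno1* is uncertain because of its near-identical copies elsewhere in the genome.

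In upper glycolysis, the genes of the isomerase and of the phosphofructokinases, which commit sugar to the pathway, all rose on activation. *Gpi1*, glucose phosphate isomerase, was at 109 and 100.2 RPKM in nB, 225, 248 and 217 in actB with DMSO and 164, 157 and 153 in Pb with DMSO. The liver-type and platelet-type phosphofructokinases *Pfkl* and *Pfkp* rose 3.79-fold and 4.89-fold. *Pfkl* was at 17.9 and 16.8 RPKM in nB, 66.4, 66.2 and 65.0 in actB with DMSO and 54.3, 47.8 and 52.0 in Pb with DMSO. *Pfkp* was at 8.99 and 9.01, 41.7, 49.1 and 41.2 and 38.1, 40.1 and 37.3 RPKM in the same groups, where Pb lay just below actB and was not called different from it. The muscle-type *Pfkm* was the least abundant of the 3, with group means from 1.44 to 5.52 RPKM. The falls of *Pfkl*, *Pfkm*, *Pdk3* and *G6pdx* in Pb were not called with median scaling (adjusted p = 0.110, 0.132, 0.467 and 0.123).

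The 6-phosphofructo-2-kinases, which set the level of the phosphofructokinase activator fructose 2,6-bisphosphate, did not move together. *Pfkfb1* rose on activation and fell in Pb. *Pfkfb2* was at 3.91 and 4.79 RPKM in nB, 3.44, 4.03 and 3.19 in actB with DMSO and 5.01, 4.93 and 5.28 in Pb with DMSO, and rose in Pb (log2 fold change 0.49 ± 0.10 (SE), adjusted p = 0.000623). *Pfkfb3*, the most abundant of the 4 and an inducible form, was at 16.6 and 15.9 RPKM, 18.6, 23.5 and 18.4 and 12.1, 12.9 and 11.4 in the same groups and fell in Pb (log2 fold change -0.71 ± 0.15 (SE), adjusted p = 0.000837). *Pfkfb4* was at 7.45 and 8.31 RPKM in nB and lower in every library of actB with DMSO (2.64, 3.34 and 2.97) and Pb with DMSO (2.68, 3.17 and 2.81), a fall of 2.64-fold on activation (log2 fold change -1.33 ± 0.11 (SE), adjusted p = 2.75e-07).

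*Tpi1* was the enzyme gene that rose most. Triose phosphate isomerase, its product, interconverts the products of the aldolases, and its level was 39.5 and 38.1 RPKM in nB, 481, 476 and 457 in actB with DMSO and 411, 368 and 366 in Pb with DMSO. This was a 12.2-fold rise (log2 fold change 3.59 ± 0.17 (SE), adjusted p = 8.76e-10). The aldolase *Aldoc* rose 10.5-fold, from 3.83 and 4.39 RPKM to 32.4, 63.6 and 33.9 (3.25 ± 0.53 (SE), adjusted p = 9.80e-05). *Aldoc* also varied most between replicates of all 36 genes, with a within-group SD of 0.67 on the log2 scale, larger than in 99.0% of all genes tested and against a median of 0.11. Replicate 2 was the high one in actB and in Pb, where its levels were 18.1, 29.4 and 18.2 RPKM with DMSO. *Aldoa*, the far more abundant aldolase, rose 3.81-fold. In Pb, *Aldoa* and *Aldoc* were called lower than in actB with the replicate block and not without it (adjusted p = 0.0297 and 0.00136, against 0.0733 and 0.0921 without it).

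Of the 7 genes of lower glycolysis, 6 rose on activation and *Eno3* fell. *Gapdh* rose 4.43-fold. *Pgk1*, whose product makes the first ATP of the pathway, was at 69.7 and 68.4 RPKM in nB, 609, 733 and 621 in actB with DMSO and 535, 538 and 509 in Pb with DMSO (activation, log2 fold change 3.23 ± 0.17 (SE), adjusted p = 2.81e-09). Its lower level in Pb was called with the replicate block and not without it (adjusted p = 0.0885 without and 0.0176 with it). *Pgam1*, phosphoglycerate mutase, was at 58.4 and 56.8, 344, 347 and 346 and 233, 198 and 215 RPKM in the same groups. *Pkm* was at 105 and 94.0 RPKM in nB, 561, 608 and 553 in actB with DMSO and 534, 514 and 508 in Pb with DMSO. It rose 5.76-fold (log2 fold change 2.52 ± 0.12 (SE), adjusted p = 8.13e-10) and was not called between actB and Pb (adjusted p = 0.229). The counts do not separate its splice forms.

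The enolases split. *Eno1*, the form of most tissues, rose 3.89-fold, and *Eno3*, the form known from muscle, fell 2.64-fold, so that *Eno1* went from 48.7% ± 0.736 (SD) of the enolase RPKM in nB to 85.4% ± 2.78 in actB with DMSO. Of the enolase genes, only *Eno1* has near-identical copies elsewhere in the genome, 3 of them, the longest over 1305 coding bases. Its level beside *Eno2* and *Eno3*, and so these shares, depend on how reads that fit several places were counted. *Eno3* was at 16.0 and 16.6 RPKM in nB, 5.03, 7.87 and 5.67 in actB with DMSO and 2.81, 4.14 and 3.32 in Pb with DMSO (activation, log2 fold change -1.39 ± 0.25 (SE), adjusted p = 0.000279). *Eno2*, the form known from neurons, went up and down: 0.874 and 0.780 RPKM in nB, 4.01, 6.54 and 3.67 in actB with DMSO and 1.29, 1.66 and 1.92 in Pb with DMSO. It fell in Pb (log2 fold change -1.39 ± 0.23 (SE), adjusted p = 0.000158).

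The lactate end of the pathway showed the largest rise of all. *Slc16a3* (MCT4), a transporter that exports lactate, was at 0.758 and 0.813 RPKM in nB, which is 45 and 48 reads, and at 47.6, 57.3 and 44.5 in actB with DMSO and 40.7, 45.3 and 34.7 in Pb with DMSO. This was a 63.4-fold rise on activation (log2 fold change 5.59 ± 0.39 (SE)). Since *Slc16a3* passed the filter on low values through the cultured libraries alone, the filter itself favours this difference and no p-value is given. *Slc16a1* (MCT1), which carries lactate in both directions, rose 5.54-fold, from 5.06 and 5.20 RPKM to 30.3, 24.6 and 30.3. The share of *Slc16a3* in the RPKM of both went from 13.3% ± 0.353 (SD) in nB to 63.5% ± 5.65 in actB and 65.9% ± 4.39 in Pb with DMSO. *Ldha*, which turns pyruvate into lactate, was at 107 and 102 RPKM in nB, 642, 627 and 646 in actB with DMSO and 483, 424 and 461 in Pb with DMSO, with no overlap of the groups. It rose 6.12-fold (log2 fold change 2.61 ± 0.11 (SE), adjusted p = 5.28e-10) and fell in Pb (-0.49 ± 0.10 (SE), adjusted p = 0.000977). *Ldhb* made up at most 1.09% ± 0.307 (SD, in nB) of the lactate dehydrogenase RPKM.

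At the entry to mitochondria, the genes for pyruvate dehydrogenase changed less than that of its kinase PDK2. *Pdha1*, the catalytic subunit that the kinases act on, was at 39.7 and 39.0 RPKM in nB, 63.0, 56.4 and 59.4 in actB with DMSO and 36.4, 28.4 and 34.1 in Pb with DMSO (actB to Pb, log2 fold change -0.85 ± 0.077 (SE), adjusted p = 6.83e-07). *Pdhb*, the other subunit of that enzyme, was at 58.7 and 57.0, 70.6, 59.6 and 70.8 and 81.0, 73.8 and 80.7 RPKM. Its small rise on activation (0.21 ± 0.086 (SE), adjusted p = 0.0444) was not called with median scaling (adjusted p = 0.148).

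Among the kinases, *Pdk2* moved most at both steps. It was at 7.34 and 6.50 RPKM in nB, 0.822, 2.09 and 0.965 in actB with DMSO and 7.27, 9.01 and 7.35 in Pb with DMSO, so the actB libraries lay below all others. It fell 5.36-fold on activation (log2 fold change -2.31 ± 0.27 (SE), adjusted p = 5.54e-06) and rose 6.10-fold in Pb (2.48 ± 0.24 (SE), adjusted p = 1.39e-06). *Pdk1*, a kinase known as a HIF1A target, was at 11.5 and 11.9 RPKM in nB, 27.3, 35.9 and 25.6 in actB with DMSO and 16.5, 17.7 and 14.9 in Pb with DMSO, and fell in Pb (log2 fold change -0.84 ± 0.25 (SE), adjusted p = 0.00893). *Pdk3* was at 12.8 and 12.2 RPKM in nB, 41.1, 42.5 and 41.5 in actB with DMSO and 38.9, 35.5 and 38.5 in Pb with DMSO. *Pdk3* thus made up 39.9% ± 0.247 (SD) of the RPKM of the 4 kinases in nB and 57.8% ± 4.32 in actB with DMSO, and *Pdk2* 22.1% ± 1.29 and 1.73% ± 0.755. Without division by gene length the order was another, with *Pdk1* at 67.4% of the RPM in nB and 71.0% in actB with DMSO and *Pdk3* at 19.8% and 28.1%. *Pdk4* had 18 and 3 reads in nB and at most 2 in any cultured library.

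In the pentose phosphate pathway 3 genes rose on activation and 1 fell. *Pgd*, the second enzyme to make NADPH, was at 41.1 and 35.1 RPKM in nB, 89.3, 80.1 and 88.5 in actB with DMSO and 46.4, 41.6 and 45.6 in Pb with DMSO. It rose 2.25-fold (log2 fold change 1.17 ± 0.080 (SE), adjusted p = 3.54e-08) and fell 1.93-fold in Pb (-0.95 ± 0.071 (SE), adjusted p = 1.34e-07). *Tkt*, transketolase, rose 2.07-fold and fell 1.46-fold, and *G6pdx*, the gatekeeper of the pathway, rose 1.39-fold. *Taldo1*, transaldolase, was the gene that fell, with 132 and 133 RPKM in nB, 112, 98.6 and 112 in actB with DMSO and 128, 124 and 123 in Pb with DMSO (activation, log2 fold change -0.30 ± 0.080 (SE), adjusted p = 0.00376, and Pb against actB 0.22 ± 0.071 (SE), adjusted p = 0.0149).

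*Hif1a* did not rise with the genes it is known to induce. It was at 26.6 and 25.4 RPKM in nB, 21.9, 25.9 and 23.4 in actB with DMSO and 11.1, 10.6 and 9.58 in Pb with DMSO. Activation gave a log2 fold change of -0.13 ± 0.077 (SE), adjusted p = 0.137, and edgeR with TMM factors or limma with median scaling called it lower (adjusted p = 0.0404 and 0.0376). In Pb it fell 2.28-fold (-1.17 ± 0.069 (SE), adjusted p = 1.41e-08). Transcript levels say nothing of the HIF1A protein, which is mainly controlled by its breakdown.

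Near-identical copies elsewhere in the genome, at 95% identity or more over at least 200 bases of coding sequence, exist for 10 of the 38 genes: *Gpi1*, *Tpi1*, *Gapdh* (76 copies), *Pgk1*, *Pgam1*, *Eno1*, *Pkm*, *Ldha*, *Ldhb* and *Pdhb*. How reads that fit several places were counted is not given in the sources used here, so the levels of these genes are uncertain to that degree. Exons of 12 genes, *Slc2a1*, *Hk1*, *Hk3*, *Gpi1*, *Pfkp*, *Pfkfb1*, *Pfkfb2*, *Tpi1*, *Slc16a3*, *Pdha1*, *G6pdx* and *Hif1a*, overlap exons of a gene on the other strand, and whether the counting used the strand is not stated.

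Part of the pathway was lower in Pb with GSK343. Of the 36 genes tested, 7 were lower and 1 higher with GSK343 than with DMSO (limma, adjusted p under 0.05), where 5.0% of all 11299 genes tested were lower and 7.9% higher. The 7 were *Hk2*, *Gpi1*, *Pfkl*, *Pfkp*, *Tpi1*, *Pgam1* and *Ldha*, which spread from the first step to lactate, and the 1 that rose was the kinase gene *Pdk3*. The median log2 fold change of the 36 was -0.12, and that of all genes 0.0031. When replicate numbers were blocked, 14 were lower and 2 higher, where 10.7% and 13.6% of all genes tested were. Markers of cell state moved as well. The 6 B cell markers summed to 752.9 to 894.4 RPKM in Pb with GSK343 and 922.3 to 942.1 with DMSO, and *Pax5* and *Ms4a1* were called lower (log2 fold change -1.11 and -0.63, adjusted p = 0.00220 and 0.00369). The 5 plasmablast markers summed to 3129 to 3396 and 3065 to 3215 RPKM and did not move together. *Sdc1*, which encodes the CD138 used in the sort, rose from 28.8 to 30.4 RPKM with DMSO to 53.3 to 58.8 with GSK343 (0.89, adjusted p = 0.000575). *Irf4* went the other way, from 357.7 to 390.7 RPKM with DMSO to 300.3 to 323 with GSK343. For *Prdm1*, *Xbp1* and *Jchain* the groups overlapped. The part of these markers in the result was not tested.

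For these 8 genes the groups did not overlap in Pb. *Hk2* (chr6:82675019-82724448 in mm9) was at 30.9, 30.9 and 28.6 RPKM with DMSO and 21.7, 25.2 and 23.0 with GSK343 (log2 fold change -0.37 ± 0.081 (SE), adjusted p = 0.0115). *Gpi1* (chr7:34987141-35015308) was at 164, 157 and 153 and 97.3, 133 and 115 RPKM (-0.47 ± 0.11 (SE), adjusted p = 0.0157). Both phosphofructokinases that carry most of the RPKM of that step were lower. *Pfkl* (chr10:77449692-77472828) went from 54.3, 47.8 and 52.0 to 29.7, 43.3 and 35.5 RPKM (-0.52 ± 0.13 (SE), adjusted p = 0.0187). *Pfkp* (chr13:6579014-6648023) went from 38.1, 40.1 and 37.3 to 21.4, 31.4 and 24.7 RPKM (-0.59 ± 0.14 (SE), adjusted p = 0.0175), the largest fall among the 7.

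Further down, *Tpi1* (chr6:124760604-124764314) was at 411, 368 and 366 RPKM with DMSO and 203, 333 and 252 with GSK343 (log2 fold change -0.57 ± 0.15 (SE), adjusted p = 0.0263). *Pgam1* (chr19:41986361-41993154) was at 233, 198 and 215 and 147, 193 and 169 RPKM (-0.35 ± 0.087 (SE), adjusted p = 0.0211). *Ldha* (chr7:54096845-54110997) was at 483, 424 and 461 and 289, 409 and 354 RPKM (-0.39 ± 0.10 (SE), adjusted p = 0.0255). In *Tpi1*, *Pgam1* and *Ldha* the GSK343 library of replicate 1 was the lowest and that of replicate 2 the highest, and replicate 2 came close to its DMSO partner. *Pdk3* (chrX:91009946-91077540) was at 38.9, 35.5 and 38.5 RPKM with DMSO and 44.6, 43.5 and 44.8 with GSK343, a rise with little spread (0.23 ± 0.045 (SE), adjusted p = 0.00581).

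**Figure D4:**
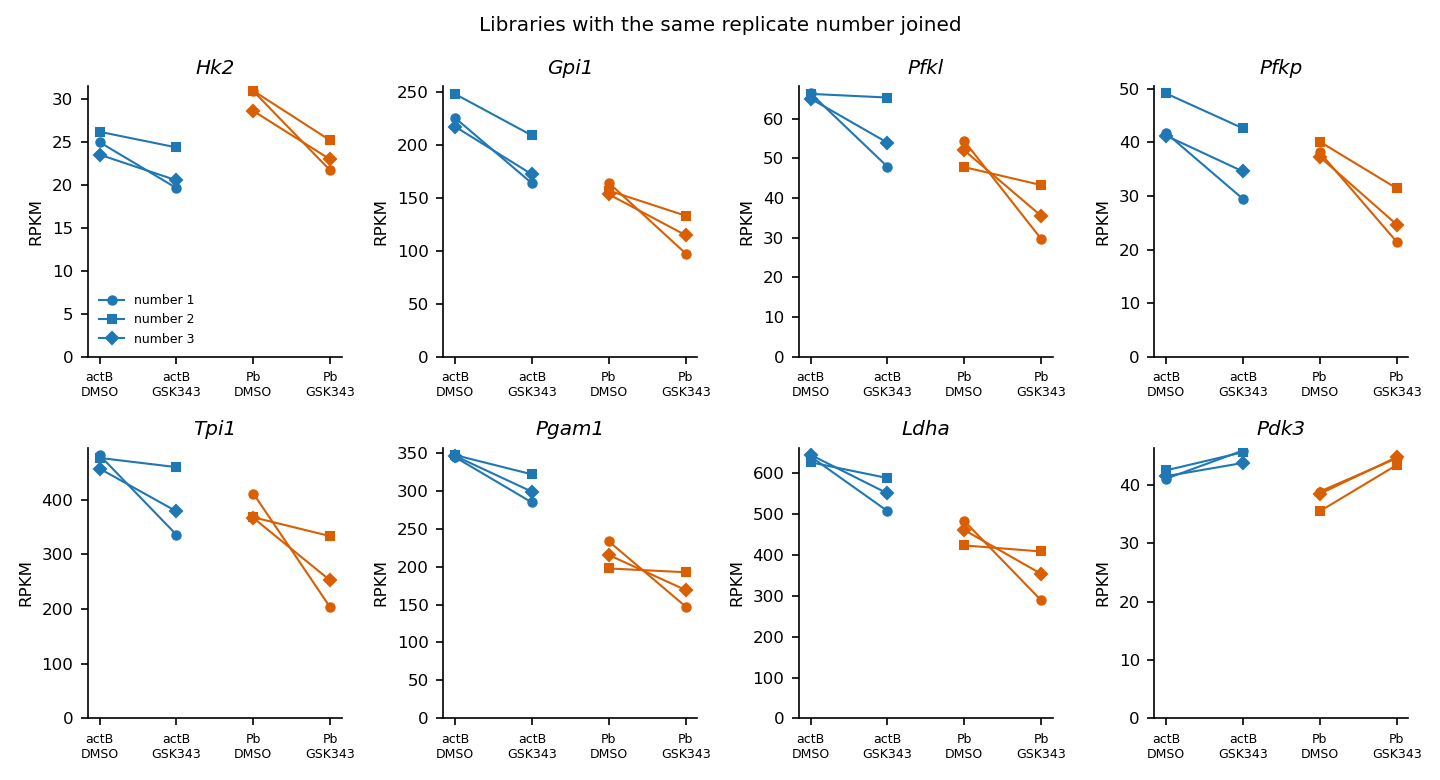
RPKM of the 8 genes called in Pb, on axes from 0, with lines that join the DMSO and the GSK343 library of the same replicate number in actB (blue) and Pb (orange). In Pb all 3 lines fall for 7 genes and rise for *Pdk3*, and the line of number 2 is the flattest for *Gpi1*, *Pfkl*, *Pfkp*, *Tpi1*, *Pgam1* and *Ldha*.

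The number of genes called in Pb rested on single libraries. The 7 lower genes became 0 without replicate 1 of Pb with GSK343, 1 without its replicate 3, 13 without its replicate 2, 1 without replicate 1 of Pb with DMSO, 3 without its replicate 3 and 6 without its replicate 2, and *Pdk3* was called each time. In these fits 1.93% to 4.59% of all genes tested were lower. Without replicate 2 of every cultured group, 16 were lower and 2 higher, where 7.52% and 9.97% of all genes tested were. Among the 36 genes, 38.9% had all GSK343 libraries of Pb below all DMSO libraries, where 15.3% of all genes tested did. Within pairs of the same number, 16 of 36 genes were lower in all 3 pairs and 10 higher, where 26.6% and 29.6% of all genes tested were, and the median log2 difference of the 36 was -0.29 in pair 1, 0.0031 in pair 2 and -0.10 in pair 3.

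With limma, 7 further genes were called lower in Pb and 1 higher with the block and not without it. *Aldoc* had the largest change of all, from 18.1, 29.4 and 18.2 RPKM with DMSO to 4.31, 14.6 and 7.05 with GSK343 (log2 fold change -1.45 ± 0.47 (SE), adjusted p = 0.0642, and 0.00122 with the block). *Slc16a3* was at 40.7, 45.3 and 34.7 and 11.7, 37.4 and 18.9 RPKM, with replicate 2 of GSK343 inside the DMSO range (-0.98 ± 0.35 (SE), adjusted p = 0.0906, and 0.0206 with the block). *Pdk1* was at 16.5, 17.7 and 14.9 and 7.83, 14.6 and 10.3 RPKM (-0.61 ± 0.25 (SE), adjusted p = 0.131, and 0.0183 with the block). These 3 are also among the genes with the widest spread between replicates. *Pgk1*, *Aldoa*, *Slc2a1* and *Pgd* had log2 fold changes of -0.45, -0.36, -0.42 and -0.22 (adjusted p = 0.0117, 0.0216, 0.0217 and 0.00869 with the block), and DESeq2 called these 4 without it as well. *Pfkm* was higher by 0.28 (adjusted p = 0.224 without and 0.0117 with the block), opposite to the other phosphofructokinases, and its share of their RPKM was 4.25% ± 0.633 (SD) with DMSO and 7.37% ± 0.536 with GSK343.

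Not every step was lower with GSK343 in Pb. *Pkm*, *Tkt*, *Hk1*, *Pdhb*, *Pfkfb3* and *Eno2* had log2 fold changes between -0.057 and 0.029. *Pkm* was at 534, 514 and 508 RPKM with DMSO and 435, 577 and 493 with GSK343, where the groups overlapped. Of the pentose phosphate genes, *G6pdx* and *Taldo1* lay above 0 (0.11 and 0.13), and limma without the block called none of the 4. *Pdk2* was at 7.27, 9.01 and 7.35 and 9.54, 10.7 and 9.51 RPKM, apart but not called (0.33 ± 0.24 (SE), adjusted p = 0.435). *Hif1a* was at 11.1, 10.6 and 9.58 and 11.3, 10.6 and 11.4 RPKM (0.094 ± 0.069 (SE), adjusted p = 0.434). The other 10 genes (*Slc2a3*, *Hk3*, *Pfkfb1*, *Pfkfb2*, *Pfkfb4*, *Gapdh*, *Eno1*, *Eno3*, *Slc16a1* and *Pdha1*) had log2 fold changes between -0.22 and 0.15, and none was called.

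*Ldhb*, which favours the step from lactate back to pyruvate, lay below the filter and was tested only in the fit without it (18752 genes). It had 6, 6 and 11 reads in Pb with DMSO and 20, 13 and 15 with GSK343, or 0.239, 0.227 and 0.410 and 0.679, 0.504 and 0.598 RPKM, and was called higher there (log2 fold change 0.65 ± 0.15 (SE), adjusted p = 0.0240). In actB it had 10, 13 and 12 reads with DMSO and 19, 16 and 16 with GSK343, again without overlap, and was not called (adjusted p = 0.295).

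In actB none of the 36 genes was called with GSK343 by limma, where 2.16% of all genes tested were lower and 8.2% higher. At an unadjusted p under 0.05 there were 12, for which no share of all genes is at hand. With TMM factors, edgeR called 2 (*Slc16a1* and *Pgd*) and DESeq2 called 4 (also *Gpi1* and *Aldoa*), all lower. Of all genes tested, edgeR called 3.43% lower and 6.79% higher, and DESeq2 5.03% and 7.7%. The median log2 fold change of the 36 was -0.19, with 27 below 0, and that of all genes 0.028. All GSK343 libraries lay below all DMSO libraries for 19.4% of the 36, where 7.52% of all genes tested did so. Of all genes called, 79.1% were higher with GSK343, against 66.5% with edgeR and TMM factors.

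When the replicate number was fitted as a block, 9 genes were lower in actB and 1 was higher, where 6.24% and 14.7% of all genes tested were. *Gpi1* was at 225, 248 and 217 RPKM with DMSO and 164, 209 and 172 with GSK343 (log2 fold change -0.35, adjusted p = 0.0648 without and 0.0197 with the block). *Slc16a1* was at 30.3, 24.6 and 30.3 and 25.1, 19.6 and 23.5 RPKM (-0.32, adjusted p = 0.0621 and 0.00732). Replicate 2 was the lowest of *Slc16a1* in both groups, unlike in *Gpi1*, where it was the highest. *Hk2* was at 25.0, 26.2 and 23.5 and 19.6, 24.4 and 20.5 RPKM (-0.21, adjusted p = 0.118 and 0.0282). The others were *Pfkp* (-0.32), *Aldoa* (-0.33), *Aldoc* (-0.96), *Pgk1* (-0.34), *Pdk1* (-0.52) and *Pgd* (-0.21), with adjusted p from 0.00909 to 0.0381 with the block, and *Pfkfb4* was higher by 0.28 (adjusted p = 0.00887).

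Replicate 2 weighed on the actB result too. Without replicate 2 of every cultured group, 13 genes were lower and 2 higher, where 4.97% and 10.4% of all genes tested were. Leaving out replicate 2 of actB with DMSO or with GSK343 alone gave 5 or 6 calls, where 12.1% and 10.1% of all genes tested were called. Leaving out any other single actB library gave 0, where 5.38% to 6.27% were called. In pairs of the same number, 25 of 36 genes were lower with GSK343 in all 3 pairs and 7 higher, where 23.0% and 35.5% of all genes tested were. The median log2 difference of the 36 was -0.27 in pair 1, -0.069 in pair 2 and -0.18 in pair 3. The plasmablast markers summed to 549 to 669 RPKM in actB with GSK343 and 485 to 522 with DMSO, and the B cell markers to 1820 to 2008 and 1850 to 2138. *Itgam* and the other myeloid markers summed to 8.31 to 14.1 RPKM in actB with GSK343 and 4.14 to 5.44 with DMSO, and to 1.01 to 1.26 and 0.484 to 0.932 in Pb, and the part of these markers in the differences was not tested.

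**Figure D5:**
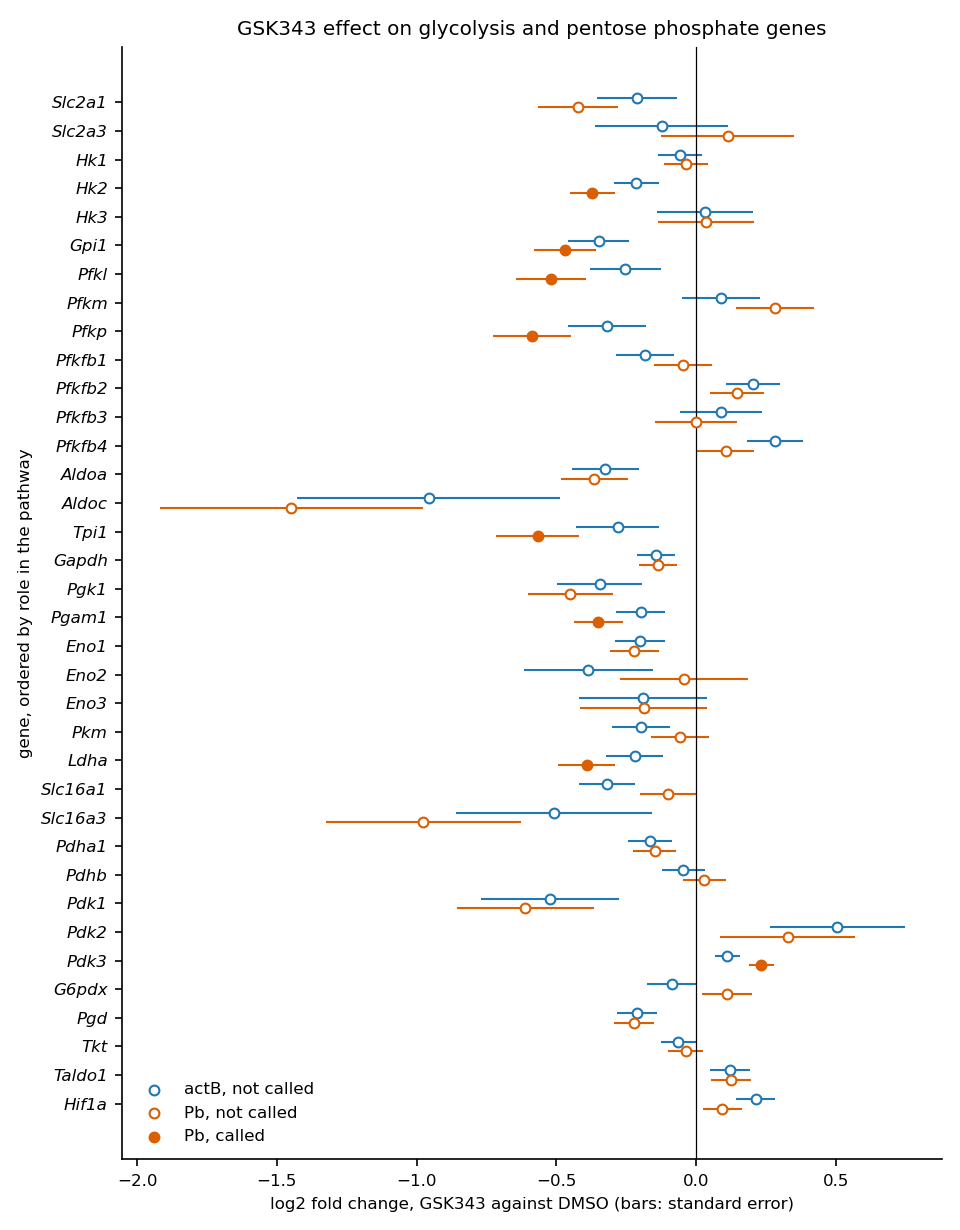
Log2 fold change of GSK343 against DMSO with its standard error for the 36 genes, ordered by role, in actB (blue) and Pb (orange), with filled points for genes called by limma without the block. Filled points appear in Pb alone, 7 to the left of 0 and *Pdk3* to the right, and 27 of the 36 actB points also lie to the left of 0.

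That genes were called in Pb and not in actB does not show that the effect differed. The difference of the GSK343 effect between Pb and actB, tested as an interaction term, was called for none of the 36 genes by limma, edgeR or DESeq2 nor with the block, where limma called 0.248% of all genes tested. At an unadjusted p under 0.05 there were 0 with limma and 4 with the block. No share of all genes is at hand for these counts, so nothing is read from them. The differences ranged from -0.49 (*Aldoc*) to 0.34 on the log2 scale. The smallest adjusted p was that of *Pdk3* (difference 0.12 ± 0.063 (SE), adjusted p = 0.641), and with the block the smallest of the 36 was 0.111.

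Other genes of glucose handling, 59 listed from general knowledge and 39 of them tested, moved in both directions. On activation 21 rose and 9 fell, where 40.9% and 36.3% of all genes tested did, with a median log2 fold change of 0.33. *Egln3*, a prolyl hydroxylase that marks HIF1A for breakdown, went from a mean of 0.179 RPKM in nB to 16.1 in actB with DMSO (log2 fold change 5.20 ± 0.48 (SE)). *Pgm2*, *Slc2a6* and *Pcx* rose next most (1.92, 1.82 and 1.70). *Egln3* and *Pcx* were below 1 RPKM in nB and passed the filter on low values through the cultured libraries alone. The filter itself favours a difference for them, so no p-value is given, though both count among the 21. *Slc16a7* (MCT2), another monocarboxylate transporter, fell from 4.50 to 0.404 RPKM (-2.86 ± 0.19 (SE), adjusted p = 2.28e-08), and *Txnip*, an inhibitor of glucose uptake, from 262 to 72.0 (-1.88 ± 0.22 (SE), adjusted p = 5.93e-06). *Pdp1*, the phosphatase that opposes the PDK kinases, and *Shpk*, sedoheptulokinase, fell as well (-1.20 and -0.84).

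Between actB and Pb with DMSO 13 of the 39 were higher and 18 lower, which is close to the 27.3% and 42.4% of all genes tested. *Epas1*, which encodes HIF2A, went from 0.368 to 3.08 RPKM (log2 fold change 2.45 ± 0.17 (SE)), while *Hif1a* fell. *Epas1* was below 1 RPKM in nB and actB and passed the filter through the Pb libraries alone. The filter itself favours a difference for it, so no p-value is given, though it counts among the 13. *Bpgm*, which diverts a glycolytic intermediate, went from 6.54 to 20.7 RPKM (1.63 ± 0.057 (SE), adjusted p = 1.86e-10), and the mitochondrial pyruvate carrier gene *Mpc2* from 5.83 to 15.2 (1.35 ± 0.078 (SE), adjusted p = 1.19e-08). *H6pd*, which makes NADPH in the endoplasmic reticulum, went from 5.74 to 12.5 RPKM (1.10 ± 0.12 (SE), adjusted p = 2.98e-06). The largest falls were those of *Gapdhs* (-1.31), *Slc2a6* (-0.99), *Egln1* (-0.91) and *Pgm2* (-0.76).

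With GSK343, 2 of the 39 rose and 1 fell in actB, and 3 rose and 1 fell in Pb. Over all genes tested 8.2% rose and 2.16% fell in actB and 7.9% and 5.0% in Pb, so as a group these genes did not stand out by their counts. *Pcx*, pyruvate carboxylase, which feeds pyruvate into the citric acid cycle, was higher in both, at 2.71 and 3.61 RPKM in actB (0.39 ± 0.086 (SE), adjusted p = 0.0141) and 2.80 and 4.25 in Pb (0.56 ± 0.086 (SE), adjusted p = 0.00176). *Rpe*, a pentose phosphate enzyme, was lower in both (-0.25 in actB, adjusted p = 0.00757, and -0.28 in Pb, adjusted p = 0.00362). *Mpc2* rose in actB (0.43 ± 0.078 (SE), adjusted p = 0.00509). In Pb, *Emb*, a chaperone of monocarboxylate transporters, went from 9.14 to 15.3 RPKM (0.74 ± 0.13 (SE), adjusted p = 0.00413), and *Bpgm* from 20.7 to 26.0 (0.32 ± 0.057 (SE), adjusted p = 0.00370). With the replicate block, 4 rose and 2 fell in actB and 5 rose and 2 fell in Pb, where 14.7% and 6.24% of all genes tested did in actB and 13.6% and 10.7% in Pb.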

How the data were processed

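RNA-seq libraries were aligned with TopHat2 to mm9, per the submitters' processing notes and methods, and reads were counted over the exons of UCSC known genes. Strand use in counting is not stated. The deposited values, written by the authors as normalized expression, are RPM, since the columns have the same sum (1000000) and 100% of values are whole multiples of 1 read. Whole reads were recovered from these steps. To get RPKM, RPM values were divided by gene lengths from the same table. The 92 genes with no symbol (0.0531% to 0.0905% of reads) were left out of tests.

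Genes that reached an RPKM of 1 in 3 or more of the 15 columns were kept (11299). Differences were tested on log2(RPKM + 0.25) with limma (version 3.58.1, R 4.3.3) over 14 libraries with group as the only term, two-sided, with Benjamini-Hochberg adjustment over all genes tested, and a gene was called at an adjusted p under 0.05. Fold changes on this scale understate those of low genes. Fold changes without "log2" are ratios of mean RPKM. Of all genes, 18752 were tested in the fit without a filter. Alternatives were edgeR 4.0.16 and DESeq2 1.42.0 on the recovered reads, other scalings, pseudocounts, filters and replicate sets, and a model that blocks on replicate number. The steps were tested on simulated data.

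The sample titles give the same number to 1 library of every group, and these numbers were taken to pair the cultured samples. Libraries that share a number also tended to deviate together from their group means. The correlation r lay at 0.158 to 0.502 among those of number 1, at 0.435 to 0.713 among those of number 2 and at 0.219 to 0.356 among those of number 3, and at -0.603 to 0.370 between numbers. The values of number 3 thus lay below the highest r between numbers. The block was fitted on the 12 cultured libraries. Copies were sought with blastn 2.17.0.

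The genes, the lists and the tests were chosen with earlier results of these data known. Values per library are given for genes called with GSK343 and for up to 6 genes with the largest change in each direction of each stage comparison. Other members were named where a role or a call under the block needed them, after their values were seen. Of the other pathway genes, those called with GSK343 and up to 4 in each direction of the first 2 stage comparisons were named.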

Additional observations from a re-analysis of the deposited data

How the results depend on the processing

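No gene changed direction under any alternative in a comparison where it was called. Over the genes tested, comparisons and alternatives, 6417 values kept their side of the threshold, 197 passed it and 128 lost it. The number called with GSK343 in actB was 0 with limma, 1 with median scaling or quantile normalization, 2 with edgeR (TMM or RLE), 3 with the nB columns as deposited, 4 with DESeq2 and 10 with the replicate block. Leaving out 1 library gave 0 to 6, and leaving out replicate 2 of every cultured group 15. Of all genes tested in actB, the block called 21% and the other settings just named 8.71% to 12.8%. Leaving out 1 library called 5.38% to 12.1% of them, and leaving out replicate 2 of every cultured group 15.4%. In Pb 8 were called with limma, 4 with only the compared groups in the fit, 16 with the replicate block, 1 to 14 without 1 library and 18 without replicate 2 of every cultured group. In the same order, 12.9%, 11.1%, 24.2%, 6.11% to 11.5% and 17.5% of all genes tested were called. Settings added after the data were seen gave 11 in actB and 16 in Pb (median scaling with the block), and 21 and 17 (edgeR TMM with the block). Of all genes tested, the first called 21.3% in actB and 25.1% in Pb, and the second 25.9% and 26.2%. No paired analysis was possible for the comparisons with nB because the merged nB sample carries both numbers 1 and 2. The block changed 4 calls between Pb and actB, all given with the results. As a share of RPM instead of RPKM, *Slc2a1* made up 40.5% of its pair in nB, 63.2% in actB with DMSO and 74.1% in Pb with DMSO, *Hk2* 17.3%, 49.7% and 66.9% of the hexokinases, *Slc16a3* 8.18%, 50.5% and 53.0%, and *Pdk2* 12.4%, 0.939% and 8.41% of the kinases. The fitted size of the *Hk3* difference between Pb and nB changed with the pseudocount and the tool, so no size is given. Depth limits statements on *Hk3*, *Ldhb* and *Pdk4*, which had few reads in cultured libraries.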
